A study of Saccharomyces cerevisiae with 8 samples.

Results

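Evolved strain 3 is 1 of 3 isolates of the budding yeast Saccharomyces cerevisiae obtained after serial growth in glucose medium. It was compared with the strain labelled parental on 4 of the 8 arrays of the series, the 2 titled for evolved strain 3 and the 2 titled for the parent, and over all 5449 genes that a probe set of the array measured. The 2 arrays each of evolved strains 1 and 2 show where strain 3 differs from its sister isolates. The labels name a laboratory haploid, BY4742, as the parent. All samples carry the same account of aerated growth at 30 °C in 100 ml of CM broth that held 0.5% ammonium sulfate and 2% glucose, with 10 µl passed to fresh medium each day over approximately 450 generations. No other genotype or agent separates the groups in the labels. The evolved strains are individual isolates, and the sources used here do not give the growth phase at RNA collection. The 2 arrays of a group are labelled biological replicates, with nothing on whether they came from separate cultures, so the p-values rest on a spread between arrays that may be technical.

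Yeast cells given ample glucose take it up through the HXT family of hexose transporters, ferment it through glycolysis, repress respiration and gluconeogenesis, and devote much of their transcription to ribosomes. When glucose runs low or stress sets in, the transcription factors Msn2 and Msn4 switch on genes of trehalose, glycogen, antioxidant enzymes and chaperones while ribosome production slows. Mating genes depend on the MAT locus: a cells make a-factor, alpha cells make alpha-factor, and a/alpha diploids turn off a set of genes that haploids share.

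Levels are log2 intensities, in which 1 unit is a 2-fold difference, and background lay between 4.27 and 4.40. A gene was called when its adjusted p with limma was under 0.05. The 2 strain 3 arrays correlated across genes at r = 0.9993 and the 2 parental arrays at 0.9972, while strain 3 and parental arrays correlated at 0.921 to 0.922, strain 3 with strain 1 at 0.993 to 0.994 and strain 3 with strain 2 at 0.996. Genes are not independent replicates. The median spread (SD, n = 2) was 0.0267 in strain 3 and 0.0536 in the parental arrays, and the number of arrays limits the precision. With 2 arrays on each side the smallest p an exact permutation test allows is 0.333, so none was used for single genes.

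The marker genes went against the label BY4742, which is an alpha strain without LYS2 and with MET17. LYS2 was above background on every array, at 9.09 and 9.04 in the parental and 11.51 and 11.56 in the strain 3 arrays, and MET17 was at 4.14 and 4.51 in the parental and at background (4.03 and 3.91) in the strain 3 arrays. The a-factor gene MFA1 stood at 12.36 and 12.35 in the arrays labelled parental, where the alpha-factor gene MF(ALPHA)1 was at background (4.35 and 3.81). URA3 was at background in both groups, LEU2 was near it (5.39 and 5.27 against 5.23 and 5.20), and HIS3, of which the strain lacks only a part, was at 11.38 and 11.41 against 12.86 and 12.82. The text therefore speaks of arrays labelled parental.

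Strain 3 differed from the arrays labelled parental at most genes. Of 5449 genes, 2343 were called higher (43%) and 2242 lower (41.1%), together 84.1%, and the split turned to 2106 higher and 2447 lower with array medians aligned. A change of at least 2-fold was seen for 589 called genes upward (10.8%) and 541 downward (9.93%), and the median over all genes was 0.02. Both strain 3 arrays lay above both parental arrays for 2541 genes (46.6%) and below them for 2405 (44.1%). As a sign of RNA quality, the 3′ minus 5′ signal of the control transcripts was smaller in strain 3 than in the arrays labelled parental for 5 of 7 transcripts (median −0.28, log2), and its part in these results was not tested. The RNA came from whole cultures, in which fewer cells of a kind and less RNA per cell cannot be told apart.

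RCK1, the gene of a kinase in the oxidative stress response, rose most. It lay close to background in the arrays labelled parental (4.89 and 4.84) and at 10.45 and 10.42 in strain 3. It rose 47.5-fold (5.57 ± 0.04, log2 and SE, adjusted p = 3.62e-09). SRL4, on chromosome XVI, went from 5.28 and 5.51 to 9.90 and 9.92, a 22.9-fold rise. PHO5, the secreted acid phosphatase that yeast makes when phosphate is short, was at 7.11 and 6.59 against 10.58 and 10.56, and rose 13.1-fold. ARO4, which opens the synthesis of aromatic amino acids, was at 9.33 and 9.51 against 12.77 and 12.83, and rose 10.4-fold. YGR035C rose 10.1-fold, from 7.05 and 6.72 to 10.23 and 10.22.

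Below these in rank stood BIO5 (uptake of a biotin precursor), at 7.11 and 7.18 in the arrays labelled parental and 10.39 and 10.45 in strain 3, and IME4, which encodes an mRNA methyltransferase known from meiosis, at 5.76 and 6.06 in the arrays labelled parental and up to 9.06 in strain 3. They rose 9.7-fold and 8.68-fold. YPL113C rose 8.55-fold, RBD2 (a rhomboid-like protease of the secretory pathway) 8.43-fold and MSF1 (the mitochondrial phenylalanyl-tRNA synthetase) 8.17-fold. STD1, a partner in glucose signalling to the HXT promoters, was at 6.29 and 6.15 against 9.23 and 9.21, and rose 8.02-fold. SUT1, a transcription factor of sterol uptake, rose 7.71-fold. The 15 genes with the largest rises were picked among called genes whose strain 3 arrays both lay above both parental arrays. Their separation was therefore set by the choice, and 46.6% of all genes had it. These 15 genes also rose in strains 1 and 2, SRL4 for one by 30.2-fold and 20.7-fold.

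**Figure D1:**
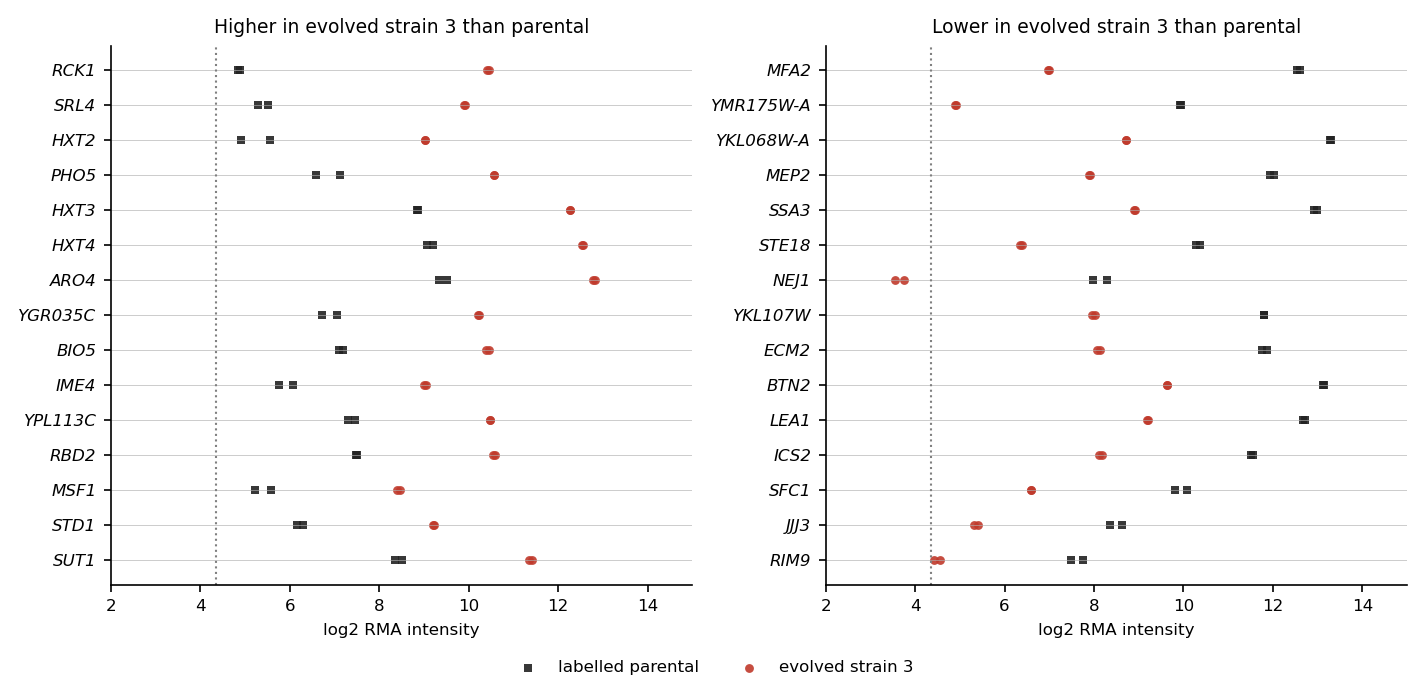
Log2 RMA intensity (horizontal axis) of the 15 genes with the largest rise (left) and the 15 with the largest fall (right) in evolved strain 3, with 1 symbol for each of the 2 arrays labelled parental (black squares) and the 2 arrays of strain 3 (red circles). The dotted line marks the background level; NEJ1 lies below it in strain 3, and RCK1 starts close to it in the arrays labelled parental, at 4.89 and 4.84.

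The largest fall was of MFA2, one of 2 genes for the a-factor pheromone, from 12.61 and 12.53 in the arrays labelled parental to 6.96 and 6.99 in strain 3, which is 48.4-fold (−5.60 ± 0.05, log2 and SE, adjusted p = 7.72e-09). YMR175W-A fell 32.9-fold, from 9.96 and 9.93 to 4.89 and 4.92, and YKL068W-A 23.9-fold, from 13.31 and 13.29 to 8.73 and 8.72. Both are small open reading frames. MEP2, the high-affinity ammonium permease, went from 12.03 and 11.95 to 7.89 and 7.91, a 17-fold fall. SSA3, an Hsp70 chaperone induced by stress, went from 12.99 and 12.92 to 8.90 and 8.93 and fell 16.5-fold. STE18, the gamma subunit of the G protein that carries the pheromone signal, fell 15.5-fold, from 10.37 and 10.27 to 6.40 and 6.34.

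NEJ1, a haploid-specific regulator of non-homologous end joining, was at 8.28 and 7.97 in the arrays labelled parental and at background in strain 3 (3.55 and 3.75), at least 14.2-fold lower (adjusted p = 3.16e-07). YKL107W fell 14.1-fold. The splicing genes ECM2 and LEA1, the second a protein of the U2 particle, fell 13.1-fold and 11.3-fold; ECM2 was at 11.77 and 11.87 against 8.13 and 8.07, and LEA1 at 12.73 and 12.67 against 9.21 and 9.19. BTN2, which acts in the sorting of misfolded proteins, fell 11.3-fold, ICS2 10.4-fold, SFC1 (the succinate and fumarate carrier of mitochondria) 10.2-fold, the J-protein gene JJJ3 8.79-fold and RIM9 (pH sensing) 8.78-fold. JJJ3 ended at 5.40 and 5.32 and RIM9 at 4.57 and 4.41, the second close to background.

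The hexose transporters split into members that rose and members that did not. HXT2, a transporter of moderate affinity, was at 5.57 and 4.90 in the arrays labelled parental and at 9.02 on both strain 3 arrays, and rose 13.8-fold (adjusted p = 1.69e-06). HXT3, of low affinity, rose 10.7-fold, from 8.86 and 8.85 to 12.27 and 12.28, and HXT4 10.6-fold, from 9.20 and 9.08 to 12.53 and 12.56. HXT1, the low-affinity transporter of glucose-rich cells, was at 6.10 and 5.72 against 7.25 and 7.09, and rose 2.39-fold. Both strain 3 arrays lay above both parental arrays for these 4 genes, as they did for 46.6% of all genes. For HXT2, HXT3 and HXT4 this was a condition of their choice among the largest rises.

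Of the other transporters, HXT7 and HXT5, a high-affinity transporter and one of slow growth, were at 13.81 and 13.82 against 13.83 and 13.85 and at 12.38 and 12.51 against 12.45 and 12.48. Their differences of 0.03 ± 0.03 and 0.02 ± 0.05 (log2, SE) were not called. HXT17 fell by 0.66, HXT13 fell by 0.87 with uneven parental arrays (6.28 and 5.19), and HXT9 by 0.13, although its other probe set gave 0.23. HXT11 was at 6.81 and 6.41 against 6.17 and 6.47 and was not called. GAL2 stayed near background, and 4 members (HXT8, HXT10, HXT14, HXT15) did not exceed it in either group. The list of 15 transporters held 4 rises and 5 falls, of which HXT14 and HXT15, being at background, are given no fold. Over all genes 43% rose and 41.1% fell, the shares to set beside this list and the others compared with the arrays labelled parental. The 5 falls became 2 under quantile normalization, with only the arrays of the groups compared, or without the first strain 3 array, and 3 without the first parental array. The list's median of −0.03 was above 0 under quantile normalization, without the second parental array and without the second strain 3 array. In the list 3 genes, HXT17 among them, were read through probe sets that the array design marks as shared between sequences. HXT6, HXT12 and HXT16 were not measured, and near-identical copies may not be told apart.

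**Figure D2:**
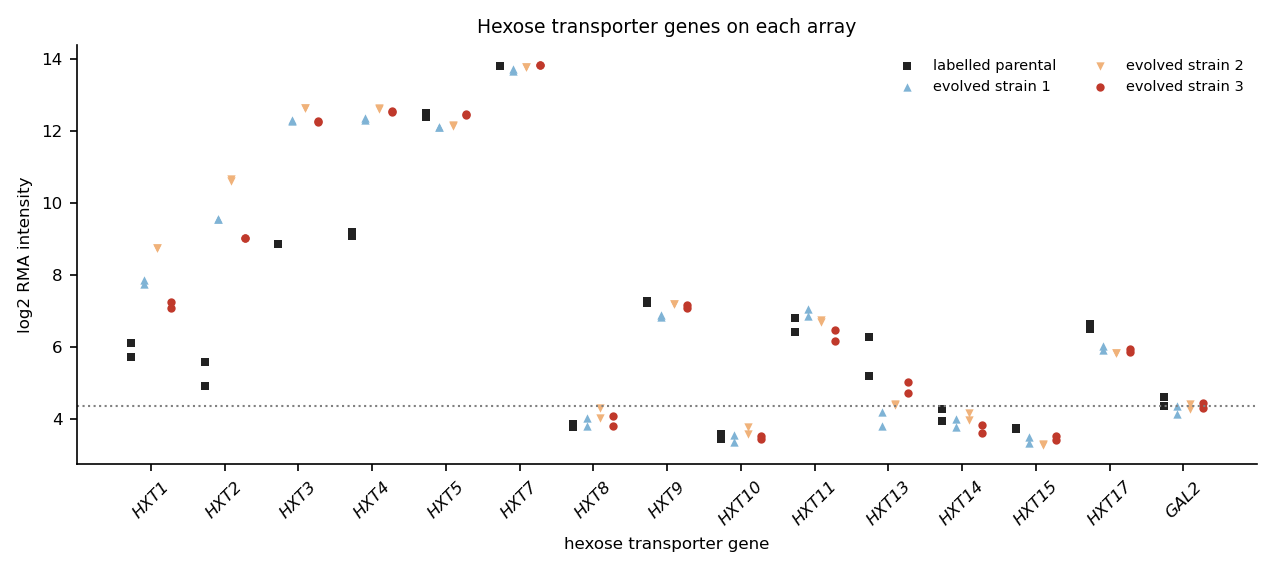
Log2 RMA intensity (vertical axis) of 15 hexose transporter genes on each of the 8 arrays, with the groups side by side. The dotted line is the background level; in HXT1 and HXT2 the strain 3 arrays (red) stand between those labelled parental and those of strains 1 and 2, and in HXT7 all groups lie near 13.8.

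Carbon metabolism genes downstream of uptake rose in part. All 16 measured glycolysis genes were called higher in strain 3 (median 1.17, against 0.02 over all genes). PGI1, phosphoglucose isomerase, went from 10.74 on both arrays labelled parental to 12.51 and 12.53. CDC19, the main pyruvate kinase, and ENO2, an enolase, each rose 3.03-fold. Of 15 ethanol and acetate genes 8 rose and 5 fell (median 0.62), with ADH5, an alcohol dehydrogenase, at 2.28 and PDC1, the main pyruvate decarboxylase, at 2.00. The gluconeogenesis and glyoxylate list went the other way, with 2 rises and 13 falls of 19 (median −0.58). FBP1, which makes fructose 6-phosphate in gluconeogenesis, went from 9.47 and 9.46 to 7.35 on both arrays, and MLS1, malate synthase, fell by 1.95.

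Storage carbohydrate genes were higher as well. Of 21 trehalose and glycogen genes 18 rose and 2 fell (median 1.15). GSY1, a glycogen synthase, was at 9.98 and 9.95 in the arrays labelled parental and 12.46 and 12.44 in strain 3, a 5.6-fold rise, and GPH1, glycogen phosphorylase, rose 4.07-fold. Of 28 general stress genes of Msn2 and Msn4, 14 rose and 11 fell (median 0.10), near the shares over all genes (43% and 41.1%). PGM2 (phosphoglucomutase) rose 3.45-fold.

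Amino acid synthesis and the charging of transfer RNAs were among the lists with the largest shifts. Of 17 lysine and arginine genes 16 rose and 1 fell (median 1.66), of 20 aromatic and histidine genes 19 rose and none fell (median 1.51), and of 21 branched-chain, serine and threonine genes 14 rose and 6 fell (median 0.84). ILV3 of valine and isoleucine synthesis was at 10.54 and 10.57 against 13.23 and 13.20, and ARG1 of arginine synthesis at 11.00 and 10.99 against 13.55 and 13.52. They rose 6.31-fold and 5.82-fold. SER3, of serine synthesis, went the other way, from 10.88 and 10.93 to 9.09 on both arrays. Of 21 aminoacyl-tRNA synthetase genes 19 rose and 1 fell (median 1.28), as in GRS1 for glycine, which rose 4.08-fold. In the sulfate and methionine list 9 of 30 rose and 19 fell (median −0.66), and MET16 of sulfate assimilation went from 12.88 and 12.81 to 9.88 and 9.83.

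Cytosolic ribosomal protein genes rose and those that build ribosomes went both ways. In the large subunit 68 of 75 rose and 3 fell (median 0.83), and in the small subunit 44 of 52 rose and 7 fell (median 0.74). RPL9A went from 10.30 and 10.12 to 12.80 and 12.86, the widest step in its list at 6.13-fold, and RPS26B from 11.58 and 11.54 to 13.56 and 13.55, at 3.97-fold. Of these genes 12 in each subunit were read through probe sets that the array design marks as shared between sequences, so that near-identical copies may not be told apart. Ribosome biogenesis had 20 rises and 30 falls of 57 (median −0.26), where 43% of all genes rose and 41.1% fell. NOP6 and IMP4 fell by 1.87 and 1.83. In the list of RNA polymerases I and III 9 rose and 13 fell of 23 (median −0.38), and RPA12, a subunit of polymerase I, went from 8.20 and 8.28 to 5.65 and 5.54.

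Mitochondrial and chaperone genes were mostly lower. In the respiratory chain 31 of 35 genes fell and 3 rose (median −0.45), and the mitochondrial ribosome had 44 falls and 7 rises among 54 genes (median −0.61). COX5A, a subunit of cytochrome c oxidase, was at 14.07 and 14.10 against 13.18 and 13.16, and NDE2, an external NADH dehydrogenase, rose by 0.99. The tricarboxylic acid cycle had 6 genes up and 9 down of 18 (median −0.10), where 43% of all genes rose and 41.1% fell. Among 31 chaperone genes 27 fell and 4 rose (median −0.61). Besides SSA3 and BTN2, the J-protein gene APJ1 went from 12.67 and 12.65 to 10.05 and 10.08.

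Mating genes separated strain 3, like strains 1 and 2, from the arrays labelled parental. Of 7 a-specific genes 6 fell and STE6, the a-factor exporter, rose by 0.47 (median −2.01), and all 7 stayed above background. The list's summed intensity was 13668 and 14255 in the arrays labelled parental and 2580 and 2639 in strain 3. It was 3074 on both arrays of strain 1, and 2378 and 2482 in strain 2. STE2, the alpha-factor receptor, was at 9.18 and 9.16 against 6.97 and 6.96, AGA2 (a-agglutinin subunit) fell 5.1-fold, MFA1 4.04-fold, BAR1 (a protease that degrades alpha-factor) 2.72-fold and ASG7 1.81-fold. Of 16 haploid-specific genes 14 fell and 2 rose (median −1.22), and their summed intensity was 15205 and 15215 against 7334 and 7361. This sum was 7904 and 8031 in strain 1, and 6830 and 6904 in strain 2. Against the mean of strains 1 and 2, 3 haploid-specific genes were higher in strain 3 and 3 lower. FAR1, which arrests the cycle on pheromone, was at 6.33 and 5.80 against background (3.51 and 3.52) in strain 3, at least 3.4-fold lower.

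The alpha-specific genes were called higher in 3 of 4 cases, with none lower. With array medians aligned, or with only the arrays of the groups compared, 2 were called higher. The list's median of 0.44 was 0.28 without the first parental array and 0.61 without the second. MF(ALPHA)1 was above background in strain 3 (5.61 and 5.50), at least 2.28-fold higher. The rise was 0.61 for MF(ALPHA)2, the other alpha-factor gene, and 0.28 for STE3, the a-factor receptor, while SAG1, alpha-agglutinin, was at 7.97 and 7.88 against 7.96 on both arrays. HMLALPHA1, an alpha regulator gene with a shared probe set, did not exceed background in the arrays labelled parental (3.30 and 3.47) and stood at 6.37 and 6.63 in strain 3, at least 4.4-fold higher. HMRA1, listed under the a cassette, was at 13.33 and 13.35 against 11.88 and 11.98. Of the 3 cassette genes measured 2 had shared probe sets, and MATALPHA1 was not measured. A signal may therefore not be assigned to a cassette rather than to the MAT locus. All 4 alpha-specific genes were above background in strain 3, as in strains 1 and 2, and 3 of 4 were so in the arrays labelled parental, with a summed intensity of 506 to 511 in strain 3 and 423 to 436 in the arrays labelled parental. The 7 a-specific genes were above background in every group.

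**Figure D3:**
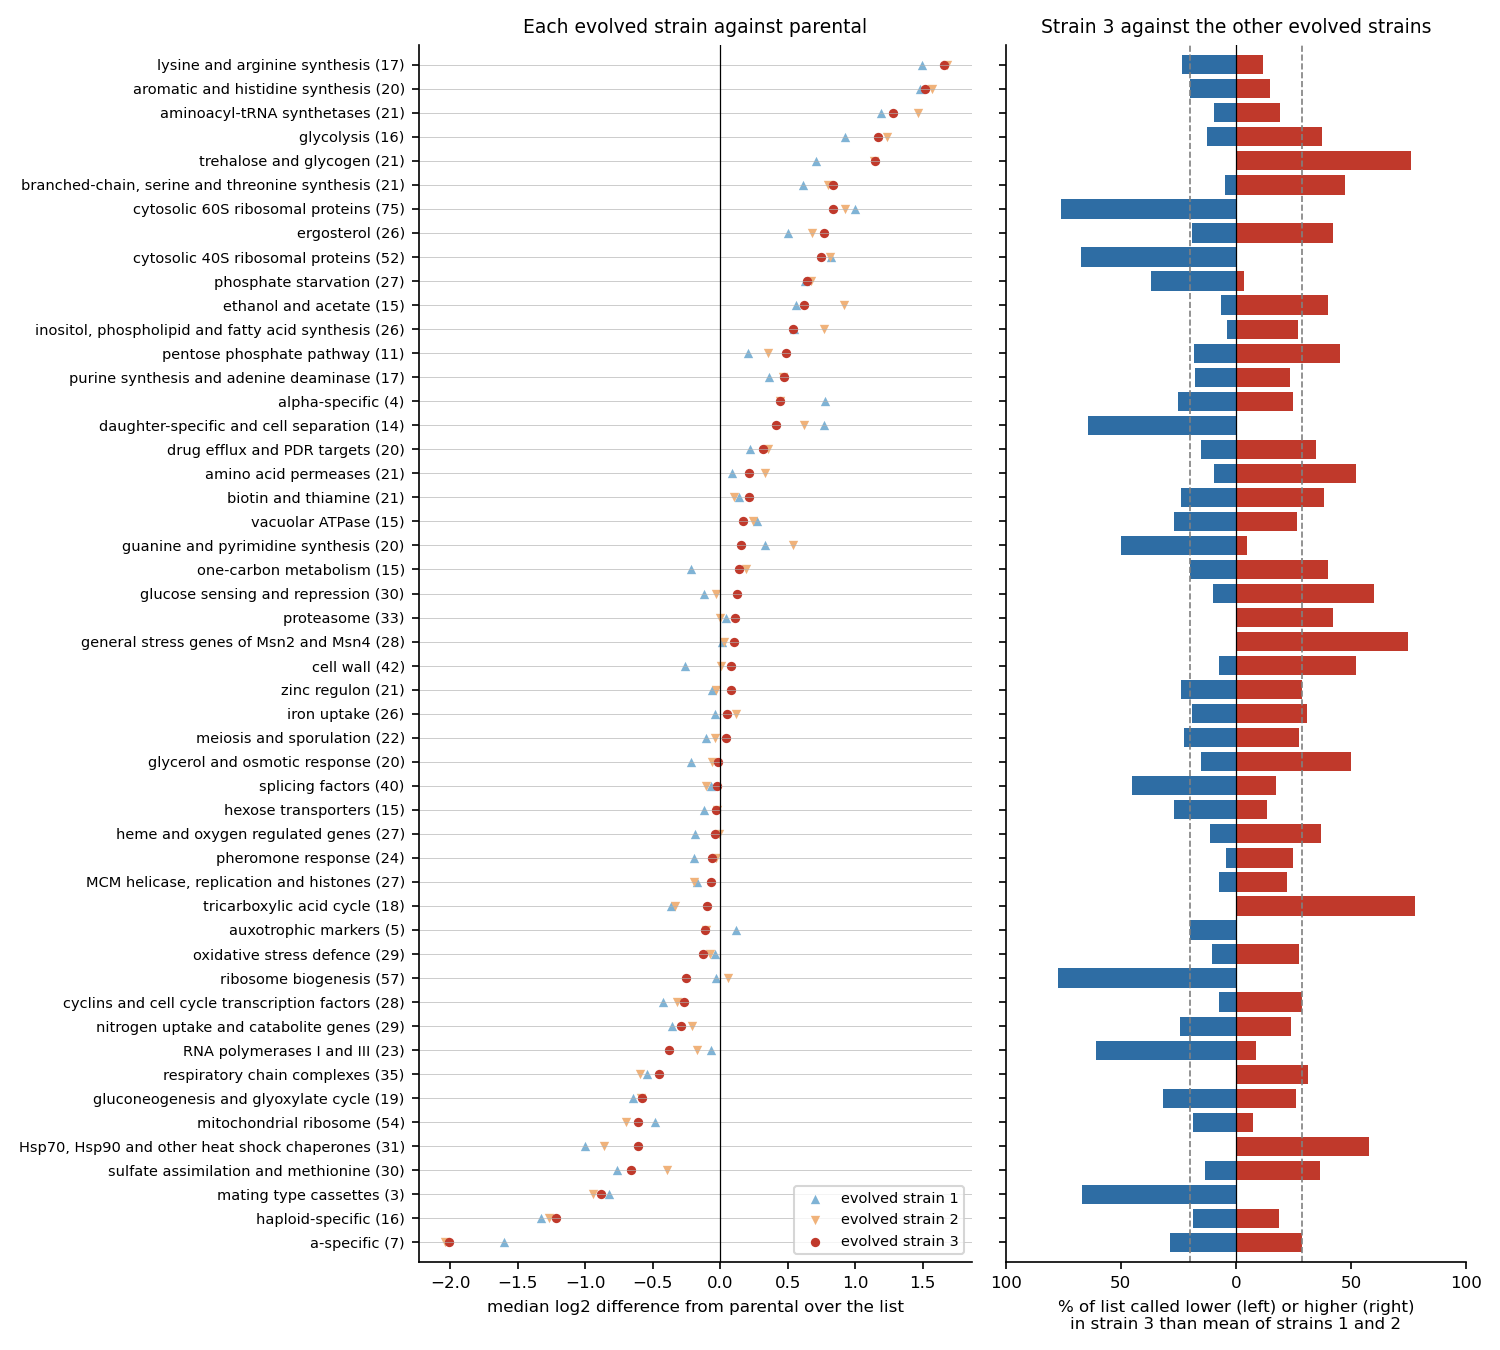
Left, the median log2 difference from the arrays labelled parental (horizontal axis) over each gene list (measured members in parentheses) for strains 1, 2 and 3; the 3 strains share the same 2 parental arrays. Right, the percentage of each list called lower (blue) or higher (red) in strain 3 than in the mean of strains 1 and 2, with dashed lines at the shares over all genes, 20.1% and 28.7%.

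Against the mean of strains 1 and 2, 1563 genes were called higher in strain 3 (28.7%) and 1093 lower (20.1%), together 48.7%. With array medians aligned the split was 1296 higher and 1284 lower, and under quantile normalization 1347 and 1206. The differences were small: 4 genes (0.0734%), all lower, reached 2-fold. They were HXT1, HXT2, AAH1 and PRP16, and PRP16, an RNA helicase of splicing, owed its place to strain 1 alone, where it was at 11.75 and 11.80 against 8.27 on both strain 3 arrays and 8.17 on both of strain 2. In single comparisons 1804 genes were higher and 1328 lower than in strain 1 (33.1% and 24.4%, together 57.5%), a split that turned to 1368 and 1722 with array medians aligned. Against strain 2, 953 were higher and 791 lower (17.5% and 14.5%, together 32%). The count against the mean of both strains fell from 2656 to 1361 without the first strain 3 array and to 1439 without the second, and that against strain 2 from 1744 to between 760 and 825 without any 1 of the 4 arrays compared. Genes called with the same sign against both strains, with the arrays of strain 3 apart from all 4 others, numbered 556 upward (10.2%) and 399 downward (7.32%). The 3′ minus 5′ difference of the control transcripts was larger in strain 3 than in strains 1 and 2 for 5 of 7, with a median of 0.04, and its part was not tested.

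Strain 3 had the lowest levels of several genes that had risen in all 3 strains. HXT1 was at 7.25 and 7.09 in strain 3, against 7.86 and 7.76 in strain 1 and 8.76 on both arrays of strain 2, which puts strain 3 2.17-fold below their mean (−1.12 ± 0.11, adjusted p = 0.000794). HXT2 followed at 9.02 against 9.56 and 9.55 in strain 1 and 10.62 and 10.67 in strain 2, 2.11-fold lower. HXT3 was 1.15-fold lower through strain 2, and HXT4 was not called. The list of 15 transporters had 2 higher and 4 lower (13.3% and 26.7%, median −0.004), where 28.7% and 20.1% of all genes were. The order of HXT1 and HXT2 was seen in AAH1, adenine deaminase of the purine salvage pathway. It was at 8.96 and 8.92 against 9.56 and 9.55 and 10.41 and 10.42, a 2.06-fold difference. In RCK1 strain 3 stood 1.68-fold below the others, and in PHM6, a phosphate-regulated gene of unknown role, 1.52-fold. The 15 genes with the largest shortfall were taken among those called lower against both strains. In 8 of them the strain 3 mean lay between the parental level and that of strains 1 and 2, a share near that of all genes called lower (520 of 1093).

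ZPS1, a cell surface protein made when zinc is short, was at 8.40 and 8.47 in strain 3 and between 9.18 and 9.55 on the 4 arrays of strains 1 and 2, with the arrays labelled parental at 7.92 and 7.87. It was 1.91-fold lower, and ZRT1, the high-affinity zinc transporter, 1.39-fold lower. The zinc list as a whole did not lean this way, with 6 of 21 genes higher and 5 lower (median 0.02). These shares of 28.6% and 23.8% were near those over all genes (28.7% and 20.1%). FRM2 (a nitroreductase-like protein) was 1.78-fold lower and AST1, which helps target the plasma membrane proton pump, 1.54-fold lower.

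Other genes lay below the parental level in strain 3. ADY2, an acetate permease, was at 9.39 and 9.38 in strain 3 but between 9.96 and 10.20 on the 6 other arrays, 1.71-fold below strains 1 and 2. ALD6, the cytosolic aldehyde dehydrogenase that makes acetate, was at 10.67 and 10.58 against 11.00 and 10.99 in strain 1 and 11.76 and 11.79 in strain 2. In the ethanol and acetate list it was the 1 gene of 15 called lower than strains 1 and 2, while 6 were higher (40%, median 0.07). YIR042C was at 8.63 and 8.72 against 9.39 to 9.58, and 10.70 and 10.66 in the arrays labelled parental. RKI1, ribose 5-phosphate isomerase of the pentose phosphate pathway, was at 9.92 and 9.89 and on the other 6 arrays between 10.24 and 10.51. Against strains 1 and 2 the pentose phosphate list had 5 higher and 2 lower of 11 (median 0.09). NIP7, which acts in assembly of the large ribosomal subunit, was 1.51-fold below strains 1 and 2. The neighbours GRX8 (a glutaredoxin) and YLR363W-A on chromosome XII were each 1.49-fold below them. NIP7 and GRX8 also lay below the parental level in strain 1 (−0.78 and −1.03, log2) and strain 2 (−0.65 and −0.96).

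**Figure D4:**
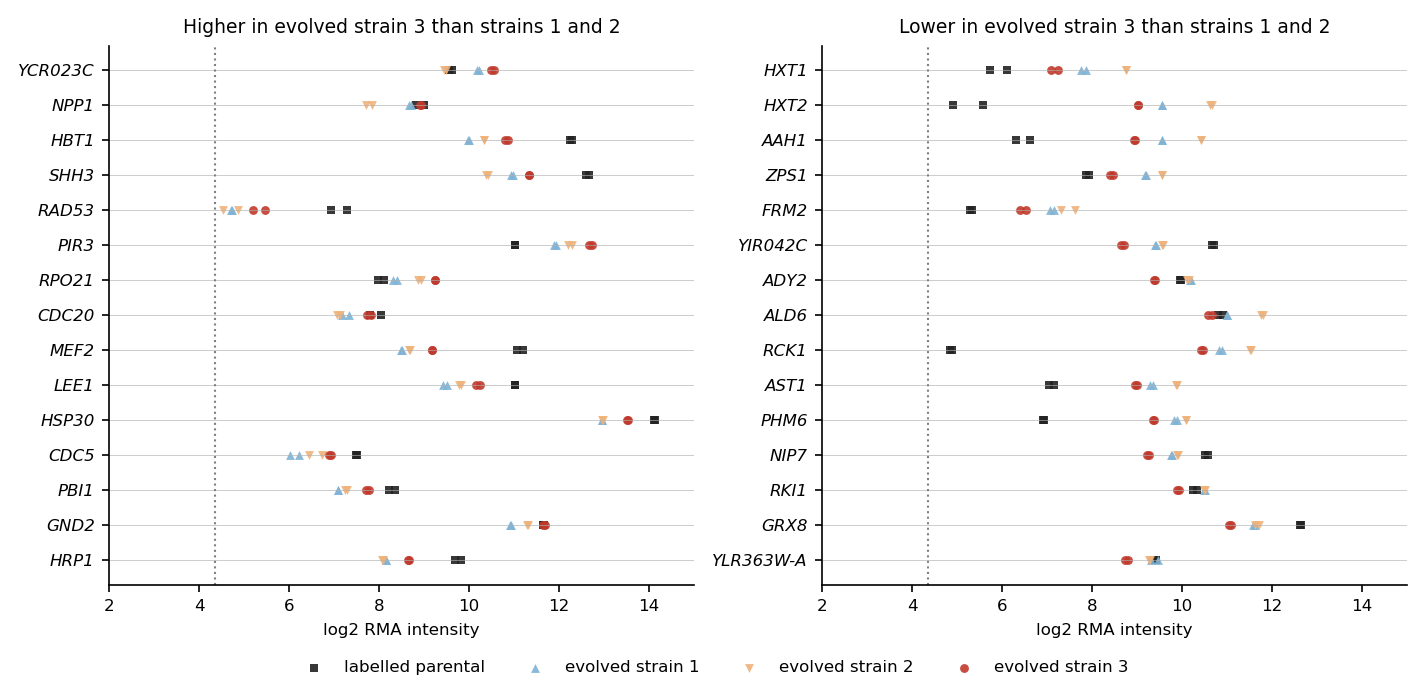
Log2 RMA intensity (horizontal axis) of the 15 genes highest (left) and the 15 lowest (right) in strain 3 relative to strains 1 and 2, among genes called against both, with 1 symbol per array for the 4 groups. The dotted line marks background; in HBT1, HSP30 and HRP1 strain 3 (red) stands between strains 1 and 2 and the arrays labelled parental (black), while in PIR3 and RPO21 it lies farthest from the latter.

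Of the 15 genes with the largest excess over both sister strains, the strain 3 mean lay between their level and the parental one in 11. Over all 1563 genes called higher it lay between in 675, beyond the sister strains in 657 and on the other side of the parental level in 231. HBT1, which acts in mating projection shape, was at 10.86 and 10.79 in strain 3, between 9.97 and 10.33 in strains 1 and 2 and at 12.24 and 12.29 in the arrays labelled parental, 1.59-fold above strains 1 and 2 (0.67 ± 0.03, adjusted p = 0.000189). HSP30, a stress-induced regulator of the plasma membrane proton pump, was at 13.52 and 13.53, where the 4 arrays of strains 1 and 2 lay between 12.95 and 12.97 and the arrays labelled parental at 14.12 and 14.13. SHH3, related to a succinate dehydrogenase subunit, was 1.56-fold higher, MEF2 (a mitochondrial elongation factor homologue) 1.51-fold and HRP1, a factor of mRNA 3′ end formation, 1.46-fold.

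The same 15 genes held 3 of cell division, although in the list of cyclins and cell cycle factors 8 of 28 genes were higher (28.6%, near the 28.7% of all genes) and in that of replication and histones 6 of 27 (22.2%). CDC20, the activator of the anaphase-promoting complex, was at 7.74 and 7.81 in strain 3 and between 7.07 and 7.33 in strains 1 and 2, CDC5, the polo kinase, was 1.48-fold higher, and RAD53, the checkpoint kinase, was at 5.21 and 5.46 against 4.52 to 4.86. Of these, RAD53 was no longer called without the second strain 3 array (0.50, adjusted p = 0.0803). GND2, a stress-linked 6-phosphogluconate dehydrogenase, was at 11.64 and 11.68 in strain 3, close to the 11.68 and 11.65 of the arrays labelled parental, and 1.46-fold above the other strains. LEE1 and PBI1, both of unknown role, were 1.48-fold and 1.47-fold higher.

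In 3 of the 15 genes strain 3 had moved farther from the parental level than its sisters. PIR3, a cell wall protein, was at 12.72 and 12.66 against 11.90 to 12.28 in strains 1 and 2 and 11.02 on both arrays labelled parental, and RPO21, the largest subunit of RNA polymerase II, at 9.23 and 9.24 against 8.32 and 8.39, 8.86 and 8.92, and 8.12 and 7.97. The third, YCR023C, and NPP1, a nucleotide pyrophosphatase not called against the arrays labelled parental (8.92 and 8.90 against 8.99 and 8.82), belong to a run of neighbours on chromosome III, chosen after its values were seen. In these 11 genes from MAK32 to RHB1 strain 3 exceeded strain 2 by 0.56 (HSP30) to 1.14 (SLM5), whereas against strain 1 the difference ran from −0.92 (HTL1) to 0.57 (HSP30). By chromosome, the median difference from strains 1 and 2 ran only from 0.003 (XIV) to 0.04 (VI).

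Lists of ribosome production were lower in strain 3 than in strains 1 and 2. Of 57 ribosome biogenesis genes 44 were called lower and none higher (77.2%, where 20.1% of all genes were lower), with a median of −0.26 against 0.03 over all genes. RRP1, of large subunit maturation, was at 8.30 and 8.28 in strain 3 and between 8.77 and 8.86 in strains 1 and 2, with 7.62 and 7.71 in the arrays labelled parental, a 1.45-fold difference. NOP12 and MAK16, both of the same pathway, were 1.37-fold and 1.4-fold lower. In the list of RNA polymerases I and III 14 of 23 were lower and 2 higher (median −0.17), and RPC40, which both enzymes share, was at 8.95 and 8.88 against 9.34 to 9.43. For ribosome biogenesis the median difference from the arrays labelled parental was −0.26 in strain 3, −0.03 in strain 1 and 0.05 in strain 2. Left without its first or second array, strain 3 had 29 or 28 biogenesis genes lower. By strain, 28 were lower and 6 higher than in strain 1, and 44 lower and none higher than in strain 2.

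Ribosomal protein genes moved with them by a smaller step. In the large subunit 57 of 75 were lower and none higher (median −0.14), and in the small subunit 35 of 52 and none (median −0.13). For 68 and 46 of them both strain 3 arrays lay below all 4 arrays of strains 1 and 2, as they did for 18.8% of all genes. Most of those called lower still lay above the parental mean, namely 53 of 57 and 29 of 35 that lay between the parental level and the sister strains, where 520 of all 1093 genes called lower did. RPL9A was at 12.80 and 12.86 against 13.14 to 13.23 in strains 1 and 2, and RPS22A at 12.13 and 12.17 against 12.62 to 12.70. RPL33B and RPS19A had ended below the arrays labelled parental, by 0.14 and 0.18. Without the first or second strain 3 array the counts were 31 or 27 in the large and 19 or 15 in the small subunit. Of 20 guanine and pyrimidine genes 10 were lower and 1 higher (median −0.15), with 4 or 6 lower without 1 strain 3 array, as in the uridine permease gene FUI1 (8.36 and 8.23 against 8.60 to 8.90). Against strain 1 alone 7 were lower and 4 higher, and against strain 2 alone 11 and 1. The purine synthesis list had 3 lower and 4 higher of 17 (median 0.02).

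Daughter-specific and cell separation genes were lower in 9 of 14 cases and higher in none (median −0.21). Counted by single strain, 10 were lower and none higher than in strain 1, and 6 lower and 1 higher than in strain 2. SCW11, a cell wall glucanase, was at 9.76 and 9.73 in strain 3, against 10.13 to 10.38 in strains 1 and 2 and 8.93 on both arrays labelled parental. DSE1 and SUN4 were 1.37-fold and 1.32-fold lower. In the phosphate list 10 of 27 were lower and 1 higher (median −0.07), and 6 were lower without the first strain 3 array. Against strain 1 alone 5 were higher and 6 lower, and against strain 2 alone none and 12. PHO89, a phosphate transporter, was at 11.69 on both strain 3 arrays against 11.93 to 12.03. In the list of splicing factors 18 of 40 were lower and 7 higher (median −0.06), with 10 lower without either strain 3 array, and 2 or 3 higher. The comparison with strain 1 gave 17 lower and 7 higher, and that with strain 2 gave 5 and 2. NAM8, a protein of the U1 particle, was 1.3-fold higher, and LUC7, of the same particle, 1.29-fold lower.

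**Figure D5:**
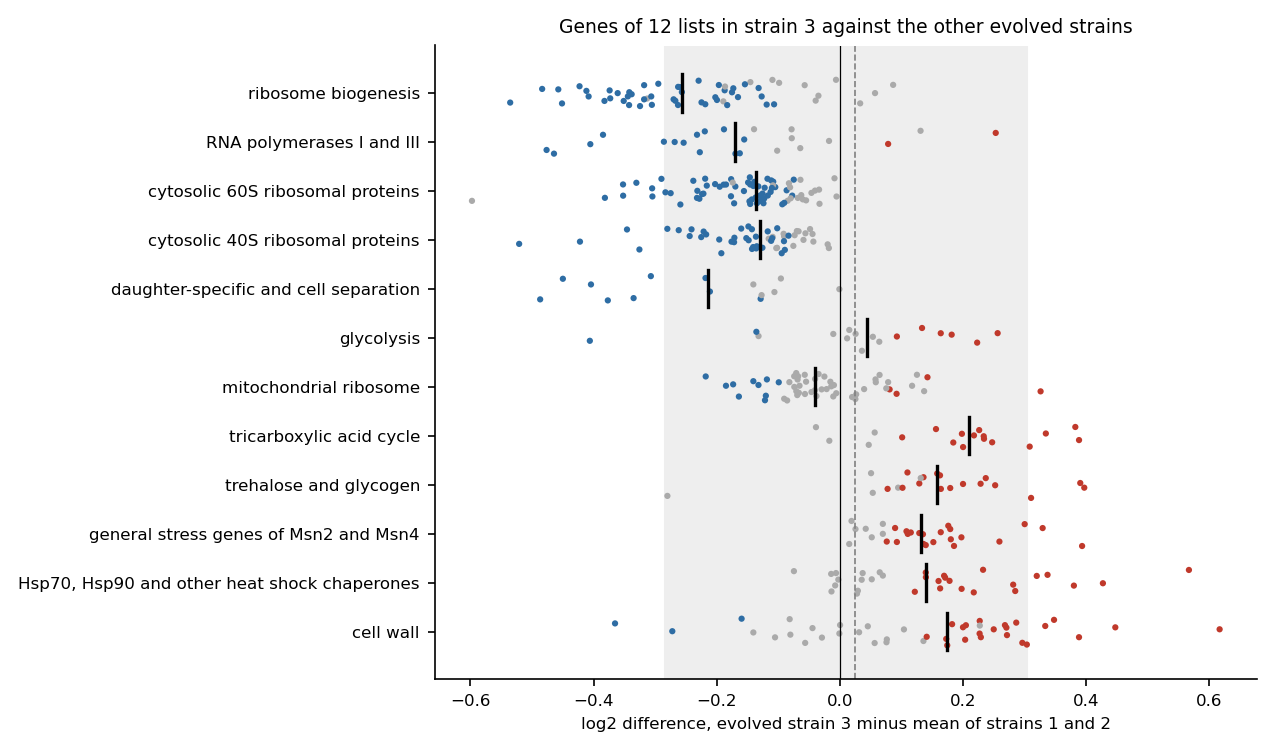
Log2 difference of strain 3 from the mean of strains 1 and 2 (horizontal axis) for the genes of 12 lists, coloured blue where called lower, red where called higher and grey where not called, with a black bar at each list's median. The dashed line is the median of all genes (0.03) and the grey band their 5th to 95th percentile; the ribosome lists lie to the left and the tricarboxylic acid cycle, storage and stress lists to the right.

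In the tricarboxylic acid cycle 14 of 18 genes were called higher and none lower (77.8%, where 28.7% of all genes were higher), with a median of 0.21. KGD1, of the ketoglutarate dehydrogenase complex, was at 11.86 and 11.84 in strain 3, against 11.39 to 11.53 in strains 1 and 2 and 12.40 and 12.46 in the arrays labelled parental. ACO1 (aconitase) and SDH1 (succinate dehydrogenase) were 1.3-fold and 1.26-fold higher. Respiratory chain genes were higher in 11 of 35 cases and lower in none (31.4%, median 0.04), a share near that of all genes, and against strain 1 alone 9 were higher and 8 lower. CYT1 (cytochrome c1) was at 11.88 and 11.80 against 11.14 in strain 1 and 11.62 and 11.69 in strain 2.

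Of 21 trehalose and glycogen genes 16 were higher and none lower (median 0.16), and in 12 of the 16 strain 3 lay beyond its sisters, away from the parental level, as did 657 of all 1563 genes called higher. Against strain 1 alone 19 were higher and none lower, and against strain 2 alone 8 and 1. GAC1, which directs a phosphatase to glycogen synthase, was at 11.03 and 11.01 against 10.36 and 10.38 in strain 1, 10.89 on both arrays of strain 2 and 9.67 and 9.65 in the arrays labelled parental. TSL1, of the trehalose synthase complex, was 1.24-fold higher. Of 28 general stress genes 21 were higher and none lower (median 0.13), among them RTN2, YGP1 and GAD1 (glutamate decarboxylase), by 1.31-fold, 1.26-fold and 1.23-fold. Without the first or second strain 3 array the counts were 9 or 10 for trehalose and glycogen and 9 or 12 for stress genes, with the medians still above 0.

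Chaperone genes were higher in 18 of 31 cases and lower in none (median 0.14), and in 16 of the 18 the strain 3 level lay between its sisters and the arrays labelled parental, as it did in 675 of all 1563 genes called higher. HSP82, the inducible Hsp90, was at 12.23 and 12.24 in strain 3, against 11.69 to 11.90 in strains 1 and 2 and 13.39 and 13.42 in the arrays labelled parental, and SSE2, a nucleotide exchange factor for Hsp70, was 1.3-fold higher. SSA3 was 1.22-fold higher, and APJ1 was not called. The list's median difference from the arrays labelled parental was −0.61 in strain 3 and −0.86 in strain 2, and lower still in strain 1.

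Cell wall genes were higher in 22 of 42 cases and lower in 3 (median 0.17), and higher in 14 without the first strain 3 array. Against strain 1 alone 26 were higher and none lower (median 0.28), and against strain 2 alone 10 and 6 (median 0.04). FLO11, the adhesin of biofilms, was at 6.40 and 6.35 against 5.65 and 5.67 in strain 1 and 6.23 and 6.18 in strain 2. In the list of glucose sensing and repression 18 of 30 were higher and 3 lower (median 0.14), with 11 or 10 higher without 1 strain 3 array. Against strain 1 alone 21 were higher and 3 lower, and against strain 2 alone 8 and 4. SCH9, a kinase that couples nutrients to growth, and YCK1, a casein kinase of the glucose sensors, were 1.3-fold and 1.29-fold higher, whereas MIG3, a repressor, was at 8.67 and 8.65 against 9.15 and 9.16 in strain 2 and 1.33-fold below the mean of both strains, and RAS1 was 1.23-fold lower. Proteasome genes were higher in 14 of 33 cases and lower in none, but with a median of 0.05, and in 3 cases without either strain 3 array, 6 to 9 without an array of strain 1 or 2 and 9 with array medians aligned. Set against strain 1 only, 10 were higher and 9 lower, and against strain 2 only 12 and none.

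Several lists that had shifted far from the parental level had small medians and mixed calls between strain 3 and the mean of its sisters. Over all genes 28.7% were called higher and 20.1% lower. Glycolysis had 6 genes higher and 2 lower of 16 (37.5% and 12.5%, median 0.04). PFK1, phosphofructokinase, was 1.19-fold higher, and ENO2 was at 11.36 and 11.34 against 11.47 and 11.41 in strain 1 and 12.05 and 12.09 in strain 2. Without the first strain 3 array 3 glycolysis genes were higher, and 9 were higher than in strain 1 alone but 1 than in strain 2 alone. Of the aromatic and histidine genes 3 were higher and 4 lower, of the lysine and arginine genes 2 and 4, and of the aminoacyl-tRNA synthetases 4 and 2, with medians between −0.04 and 0.03. The mean of both sisters covered opposite differences in the synthetases, of which 15 were higher and none lower than in strain 1 (median 0.15), and 1 higher and 9 lower than in strain 2 (median −0.12). The a-specific list had 2 higher and 2 lower of 7. STE2 was 1.3-fold higher in strain 3, and ASG7 was at 8.06 and 8.11 against 8.70 and 8.65 in strain 1, with a difference of 0.05 from strain 2 that was not called. The mitochondrial ribosome had 4 higher and 10 lower of 54 (median −0.04), with 4 lower and 1 higher without either strain 3 array, and it was lower than strain 1 in 39 genes and higher than strain 2 in 20.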

How the data were processed

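Biotin-labelled cRNA from 100 ng of total RNA was hybridised to Affymetrix arrays, 2 per group. The deposited values are intensity values that the authors made with RMA, per the submitters' processing notes, with no version in the sources used here; RMA corrects background, equalises the distributions of the arrays and summarises probes into probe sets. They were on a linear scale, although log2 values had been assumed at planning, so log2 was taken. Of 10928 probe sets, 5498 had 1 S. cerevisiae gene, giving 5449 genes; for the 47 genes with several, the brightest was used. Background was the 95th percentile of 1746 other-species probe sets on each array; a gene at background on both arrays of one side is given as a bound.

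limma 3.58.1 in R 4.3.3 fitted 1 coefficient per group to all 8 arrays (4 residual and 2.52 prior degrees of freedom), with Benjamini-Hochberg adjustment over all genes. Contrasts were strain 3 minus the arrays labelled parental, minus the mean of strains 1 and 2, and minus each. Named genes were the 15 largest called rises and falls against parental with arrays apart, the 15 largest in each direction against strains 1 and 2 among genes called against both with arrays apart, up to 3 called members per list and contrast, and all members of the hexose transporter, a-specific, alpha-specific and auxotrophic marker lists. The members and the 50 lists (1234 of 1271 entries measured) were chosen with earlier results of these data known, and no list was tested as a set.

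On simulated data for 5449 genes, strain 3 against parental gave calls for 62%, 92%, 96% and 100% of genes shifted by 0.25, 0.5, 1 and 2 (log2), 50 genes each, and for 8 of 5249 unshifted genes. Strain 3 against strains 1 and 2 gave 76%, 94%, 98% and 100%, and 8. Few genes were shifted there, whereas 84.1% and 48.7% were called in the data. The adjustment depends on that share, so the simulated rates do not carry over to these data. Same-numbered replicates deviated together in none of 6 group pairs (r from −0.12 to 0.03, limit 0.1), so replicate numbers were not treated as pairs. Alternatives covered normalization, array medians, spread models, array weights, filters, probe set choice, a pseudocount of 16, a replicate block and leaving out each array.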

Additional observations from a re-analysis of the deposited data

Results flagged for a closer look

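The test of the difference between strain 3 and the mean of strains 1 and 2 called 2656 genes. The 30 genes given here, with the log2 difference from that mean, are not simply those with the largest differences. They are the largest among genes also called against each strain alone, with the strain 3 arrays apart from those of both strains. PRP16, whose difference came from strain 1 alone, is left out by this rule. Genes lower in strain 3 were the glucose transporters HXT1 (−1.12) and HXT2 (−1.08), the salvage enzyme gene AAH1 (−1.05) and the zinc-regulated ZPS1 (−0.93). Below them in size came FRM2 (−0.83), YIR042C (−0.81), ADY2 (−0.77), ALD6 (−0.75), RCK1 (−0.75) and AST1 (−0.62). The last were PHM6 (−0.61), NIP7 (−0.60), RKI1 (−0.59), GRX8 (−0.58) and YLR363W-A (−0.57). Genes higher in strain 3 were YCR023C (0.69), NPP1 (0.68), HBT1 (0.67), SHH3 (0.65), RAD53 (0.63), PIR3 (0.62), RPO21 (0.62), CDC20 (0.60), MEF2 (0.59), LEE1 (0.57), HSP30 (0.57), CDC5 (0.56), PBI1 (0.56), GND2 (0.55) and HRP1 (0.54).

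Of 3517 probe sets with no gene listed, 299 were above background on all 8 arrays. Over all 3517, a signal above background in strain 3 that was at least 2-fold higher than the parental mean, with the arrays of the groups apart, was seen for 23, and 23 were lower by the same measure.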

How the results depend on the processing

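Against the arrays labelled parental, calls stayed between 4200 and 4651 under every alternative run. Leaving out 1 array gave 4299 to 4651 calls there, 1361 to 3293 against the mean of strains 1 and 2, 2340 to 3672 against strain 1 and 760 to 2559 against strain 2. At an adjusted p under 0.01 the count was 1462 against the mean of strains 1 and 2 and 787 against strain 2, and array weights raised the latter to 2703. Aligning array medians turned the split against strain 1 to 1368 higher and 1722 lower. With a replicate block the counts were 4550, 2472, 3058 and 1550, and the numbers do not pair the samples by the check above. The alternatives for named genes without single arrays or with a pseudocount of 16, and for lists under every setting, were chosen after seeing the data. Of the named genes' values, 1137 kept direction and call and 1 lost its call (RAD53, 0.50). Recomputed under other normalization or probe set choices, 95 list medians moved by more than the spread between replicates and 205 by less. The number of the 50 lists with a median above 0 against parental was 29, and 27 to 30 under those choices, which does not show that they were the same lists. The 2 arrays per group limit the precision, and low signals near background are the least certain.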
